A study of Oryza sativa Japonica Group with 12 samples.

Results

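Aux/IAA genes IAA3 (LOC4325890), IAA11 (LOC4333511), IAA13 (LOC4334069) and IAA23 (LOC4341432) and the protein kinase gene PID (LOC4352785) are auxin regulators of crown or lateral root formation in rice. They were taken by gene identifier, and each had 1 probe set, so 5 of 24160 measured genes, and 5 of the 24251 probe sets paired with a gene, are described. Transcript levels were measured on 12 arrays in the stem bases of 6-day-old Oryza sativa japonica plantlets, cultivar Taichung 65. All plants carried the crl1 mutation, which removes crown roots. The construct pC5300.OE-OsbHLH044, which overexpresses a transcription factor gene, was carried by line OsbHLH044_crl1OE_67.1.11.7 (OE 67.1) and line OsbHLH044_crl1OE_67.5.9.12 (OE 67.5). Their null segregant sisters without the T-DNA were N_OsbHLH044_crl1OE_67.1.1.5 (null 67.1) and N_OsbHLH044_crl1OE_67.5.13.4 (null 67.5). The couples 67.1 and 67.5 are labelled as independent. Each line had 3 arrays from independent repetitions, and each repetition pooled 8 to 12 ground stem bases. Each group is thus 1 line, so the transgene and other differences between sister lines cannot be told apart, and the promoter of the transgene is not given in the sources used here.

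Auxin acts largely by removing repressors. Aux/IAA proteins bind auxin response factors (ARFs) and hold auxin-responsive genes off; auxin brings an Aux/IAA protein to an F-box receptor, the protein is degraded, and the ARFs are released. CRL1, an LBD factor that starts crown root primordia and is mutated here, is such an auxin-responsive ARF target. Stabilised forms of IAA3 reduce auxin responses and crown roots in rice, and stabilised IAA11 and IAA13 block lateral root initiation. A stabilised form of IAA23 impairs the maintenance of the quiescent centre of the root. PID is an AGC kinase related to Arabidopsis PINOID, which phosphorylates PIN auxin efflux carriers, and its overexpression delays crown root emergence in rice.

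The values are log2 levels after RMA, and levels of different probe sets are not compared. The medians of the 12 arrays lay between 4.34 and 4.39. The spread over all probe sets was not equal: its SD was 1.61 to 1.67 on the arrays of the 67.1 lines and 1.64 to 1.71 on those of the 67.5 lines, so bright probe sets tended to read higher in the latter. All 8 measured markers of green tissue, 13 of 17 of dividing cells, 6 of 19 of roots and 1 of 8 of seed lay above the median of every array. The label names a mixed organ, and in such bulk samples fewer cells of a type and less RNA per cell cannot be told apart.

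IAA3 was higher in both 67.5 lines than in both 67.1 lines, whether or not the transgene was present. Its level was 7.02, 7.15 and 7.17 in null 67.1, 7.11, 7.10 and 7.25 in OE 67.1, 7.22, 7.41 and 7.27 in null 67.5, and 7.37, 7.55 and 7.40 in OE 67.5. The lowest null 67.5 array lay just above the highest null 67.1 array, and all OE 67.5 arrays lay above all OE 67.1 arrays. Within each couple the overexpressing and null arrays overlapped. From low to high the lines were null 67.1, OE 67.1, null 67.5 and OE 67.5, and no line was separated from its neighbour in that order.

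Averaged over null and overexpressing lines, the 67.5 lines exceeded the 67.1 lines in IAA3 by 0.24 ± 0.06 (log2 difference ± SE, 95% interval 0.10 to 0.37, limma adjusted p = 0.0288). This is a 1.18-fold difference. The comparison was added after the IAA3 values had been seen, and 14.9% of all tested probe sets passed in it, so a call for 1 of 5 genes is near the background. An unadjusted p under 0.05 was reached by 34.9% of all probe sets and by 2 of the 5 genes, IAA3 and PID. Arrays were separated the same way between the null and between the overexpressing lines for 7.92% of all probe sets, and for IAA3 alone of the 5. The null lines by themselves differed by -0.19 ± 0.09 (67.1 minus 67.5, adjusted p = 0.295) and the overexpressing lines by -0.29 ± 0.09 (adjusted p = 0.0942). Neither of these passed.

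The IAA3 call did not hold under every scaling of the arrays. After a further quantile normalization, which makes the 12 distributions identical, the difference was 0.11 ± 0.06 (adjusted p = 0.215), and the null arrays overlapped, at 7.14 to 7.23 in null 67.1 and 7.16 to 7.32 in null 67.5. The overexpressing arrays were still separated on that scale, at 7.20 to 7.23 against 7.27 to 7.48. Among probe sets brighter than the median probe set, the median difference between the 67.5 and the 67.1 lines was 0.096 as deposited. The call was also lost without any 1 of 8 arrays (highest adjusted p = 0.076), and was kept without replicate 3 of null 67.1 or OE 67.1, or replicate 1 of null 67.5 or OE 67.5. The summed linear level of the 17 markers of dividing cells moved the same way, at 799 to 840 in null 67.1, 789 to 918 in OE 67.1, 862 to 964 in null 67.5 and 972 to 1068 in OE 67.5. The sum of the 19 root markers was also higher in the 67.5 lines, at 2157 to 2251 in null 67.5 against 1971 to 2011.5 in null 67.1, and at 1972 to 2059 in OE 67.5 against 1684 to 1747 in OE 67.1. This linear root sum is weighted to TIP2;2 (LOC4340941), the brightest root marker, at a mean log2 level of 10.6. The log2 of the line means of the sum was 10.75 to 11.1, so it says little of the other root markers. The part of either marker sum in the IAA3 difference was not tested.

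**Figure D1:**
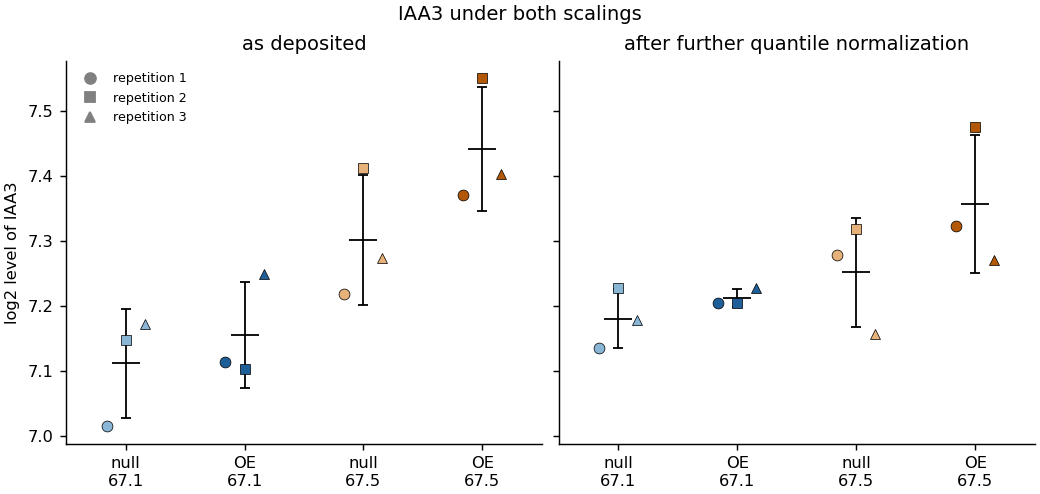
Log2 level of IAA3 (vertical axis) in the 4 lines, as deposited on the left and after a further quantile normalization on the right. Points are arrays, with the symbol giving the repetition, and bars are mean and SD of 3 arrays. As deposited, all arrays of null 67.5 lie above all arrays of null 67.1; on the right these lines overlap.

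IAA11 varied more within lines than most genes. Its level was 5.38, 5.64 and 5.36 in null 67.1, 5.54, 5.81 and 5.48 in OE 67.1, 5.60, 5.07 and 5.40 in null 67.5, and 5.39, 5.45 and 5.02 in OE 67.5. The lowest arrays were replicate 2 of null 67.5 and replicate 3 of OE 67.5, and in neither couple were overexpressing and null arrays separated. The within-line SD was 0.214, larger than that of 88.3% of the tested probe sets. OE 67.1 exceeded OE 67.5 by 0.32 ± 0.15 (95% interval 0.0051 to 0.64, adjusted p = 0.19). These arrays were separated by a narrow gap, from 5.45 to 5.48, and without OE 67.5 replicate 3 the difference was 0.19.

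IAA12 (LOC4333512), another Aux/IAA gene, is the next protein-coding gene after IAA11 in the gene order of assembly ASM3414082v1. Its own differences were 0.0091 in couple 67.1 and 0.065 in couple 67.5. Between the overexpressing lines it gave -0.12 (67.1 minus 67.5, adjusted p = 0.441), where IAA11 had the opposite sign; the difference between these neighbours was not tested.

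IAA13, which the gene table also lists under the synonym IAA1, had the smallest range over the 12 arrays among the 5 genes. Its level was 5.97, 6.15 and 6.04 in null 67.1, 5.99, 6.07 and 6.23 in OE 67.1, 5.98, 6.27 and 6.12 in null 67.5, and 6.03, 6.23 and 6.27 in OE 67.5. All 4 lines overlapped, and line means ran from 6.06 in null 67.1 to 6.17 in OE 67.5. The arrays of repetition 1 were the 4 lowest of the 12, at 5.97 to 6.03. Repetitions accounted for 61.4% of the sum of squares of IAA13, against a median of 16.4% over all tested probe sets, and lines for 15.2%, against a median of 41.5%.

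The test of the repetition number on IAA13, added after these values had been seen, gave an adjusted p of 0.319 (limma F test, unadjusted p = 0.039). No probe set passed it after adjustment, which is 0% of those tested, and 14.6% had an unadjusted p under 0.05. Repetition 2 exceeded repetition 1 by 0.19 and repetition 3 exceeded it by 0.18 on the log2 scale. After the further quantile normalization the repetition 1 arrays lay at 5.99 to 6.10 and overlapped the others. In each line the repetition 1 array also had the smallest SD over all probe sets. That SD was 1.6085 in null 67.1, 1.6252 in OE 67.1, 1.643 in null 67.5 and 1.6802 in OE 67.5. In OE 67.1 repetition 2 was nearly equal, at 1.6253. The part of this spread in the IAA13 values was not tested. The labels do not say what equal repetition numbers share.

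**Figure D2:**
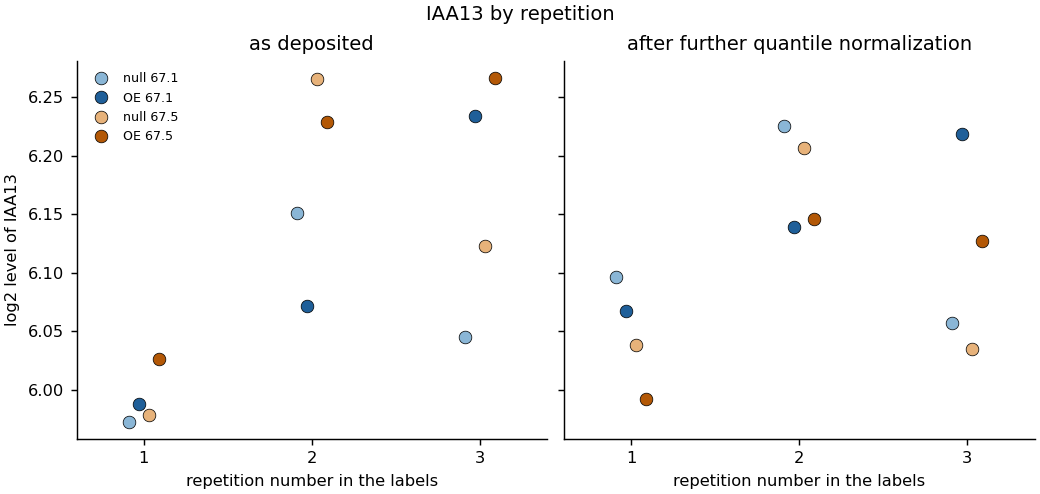
Log2 level of IAA13 (vertical axis) by the repetition number in the labels (horizontal axis), as deposited on the left and after a further quantile normalization on the right. Each point is 1 of 12 arrays, coloured by line. On the left the 4 arrays of repetition 1 lie between 5.97 and 6.03, below the other 8.

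IAA23 was read at a low level on every array, where RMA compresses differences. It lay at 3.17, 3.01 and 3.52 in null 67.1, 3.06, 3.24 and 3.45 in OE 67.1, 3.44, 3.24 and 3.42 in null 67.5, and 3.13, 3.55 and 3.08 in OE 67.5. All of these were below the median of their array, and between 14.7% and 30.6% of probe sets were lower. Null 67.1 and OE 67.5 each held arrays near both ends of the range, and all 4 lines overlapped. Lines accounted for 8.56% of its sum of squares, and its within-line SD of 0.215 was larger than that of 88.5% of the tested probe sets. No difference between lines passed, and for overexpression on the mean of both couples the 95% interval was -0.28 to 0.18.

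PID was lowest in OE 67.5. Its level was 4.37, 4.34 and 4.58 in null 67.1, 4.26, 4.49 and 4.46 in OE 67.1, 4.47, 4.07 and 4.36 in null 67.5, and 4.14, 4.23 and 3.89 in OE 67.5. All OE 67.5 arrays lay below all OE 67.1 arrays, and they overlapped null 67.5 only through its replicate 2 array at 4.07. On 5 of 12 arrays PID was above the array median. In couple 67.5 the overexpressing line differed from its null sister by -0.21 ± 0.12 (95% interval -0.48 to 0.047, adjusted p = 0.538), and in couple 67.1 by -0.029 ± 0.12 (adjusted p = 1.00). Single arrays moved the couple 67.5 value from -0.33 without null 67.5 replicate 2 to -0.12 without OE 67.5 replicate 3. OE 67.1 exceeded OE 67.5 by 0.32 ± 0.12 (adjusted p = 0.137). Averaged over null and overexpressing lines, the 67.5 lines gave -0.22 ± 0.09 against the 67.1 lines (adjusted p = 0.0857), which passed only without null 67.5 replicate 1 (adjusted p = 0.0431). PID2 (LOC4327129), the 1 other gene measured on the list of related kinases, gave 0.062 ± 0.061 on the mean of both couples, and in couple 67.5 it gave 0.14 ± 0.09.

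**Figure D3:**
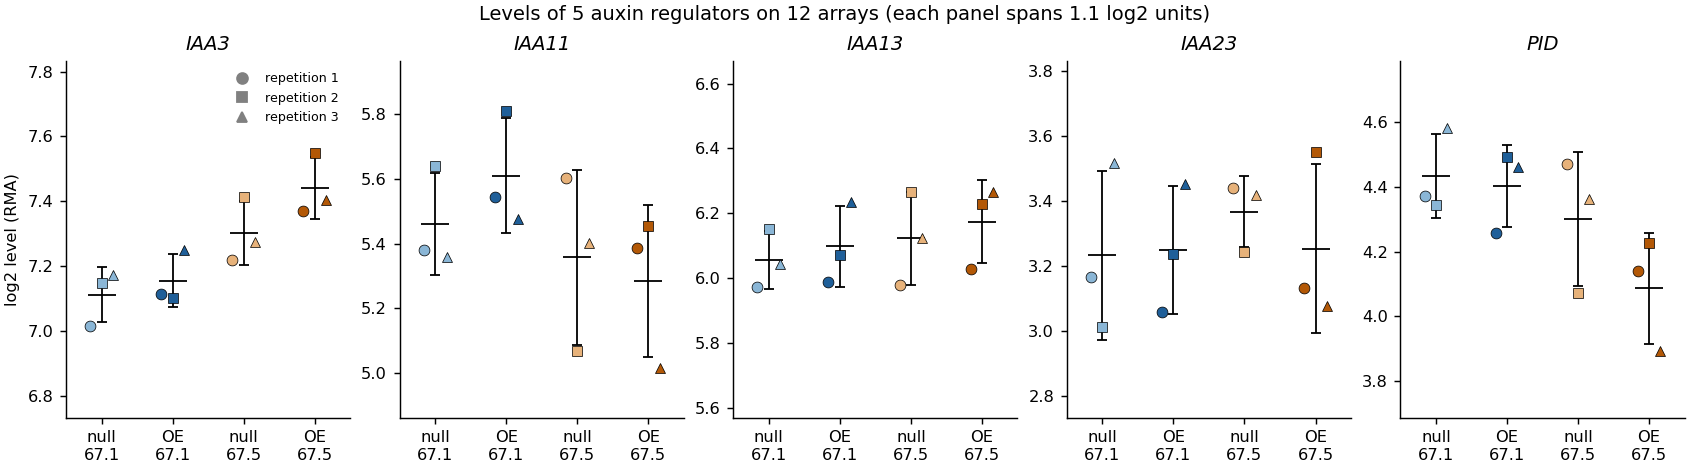
Log2 levels of the 5 genes (vertical axes, each spanning the same range of log2 units) in the 4 lines. Points are arrays, with the symbol giving the repetition, and bars are mean and SD of 3 arrays. The line means of IAA3 are higher in the 67.5 than in the 67.1 lines, though OE 67.1 and null 67.5 arrays overlap. No gene separates overexpressing from null arrays within a couple.

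The question of the design is whether OsbHLH044 overexpression changed these regulators, and none of the 5 passed in that comparison. On the mean of both couples 3 gave a positive and 2 a negative difference. The values were 0.092 ± 0.064 for IAA3, 0.038 ± 0.11 for IAA11, 0.047 ± 0.074 for IAA13, -0.049 ± 0.11 for IAA23 and -0.12 ± 0.09 for PID. The lowest adjusted p was 0.699. Over all probe sets 0.186% passed, and at an unadjusted p under 0.05 limma gave 0 of the 5 genes against 9% of all probe sets. The sum of the 19 root markers, most of it from TIP2;2, was lower in the overexpressing line of each couple with no overlap. That of the 8 green tissue markers was lower without overlap in couple 67.5, at 1595 to 1775 against 2006 to 2183 in null 67.5. In couple 67.1 the green tissue sums overlapped. The sum of the 17 markers of dividing cells was higher without overlap in OE 67.5, at 972 to 1068 against 862 to 964 in null 67.5. In couple 67.1 the dividing cell sums overlapped. The sum of the 8 seed markers was higher without overlap in OE 67.5 than in null 67.5, and lower without overlap in OE 67.1 than in null 67.1. The part of these markers in the 5 genes' values was not tested.

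The intervals bound what could have been missed. Across the 5 genes the 95% intervals of the mean of both couples ran from a 0.808-fold level of PID to a 1.2-fold level of IAA11. For IAA3 they ran from 0.969-fold to 1.17-fold and for IAA13 from 0.926-fold to 1.15-fold. In simulated data for this comparison 82% of changes of 0.5 on the log2 scale were recovered. That rate is an average over randomly drawn probe sets and need not hold for each of the 5 genes. The simulation held 200 changed probe sets and gave 191 calls, against 45 in the data. Its adjusted threshold was thus less strict, and the rate may be lower in the data. The within-line SDs of IAA11 and IAA23 were larger than those of 88.3% and 88.5% of the tested probe sets.

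Within couple 67.1 the 5 differences lay between -0.029 for PID and 0.15 for IAA11, and none passed, where 0.0165% of all probe sets did. Within couple 67.5 they lay between -0.21 for PID and 0.14 for IAA3, and none passed, against 0.342%. In limma 0 of the 5 had an unadjusted p under 0.05 in couple 67.1 and 0 in couple 67.5, against 3.46% and 10.8% of all probe sets. The overexpressing and null arrays of all 5 genes overlapped in both couples, while they were separated for 9.29% of all probe sets in couple 67.1 and 14.9% in couple 67.5. The change with overexpression was not shown to differ between the couples: the test of that difference passed for none of the 5 (lowest adjusted p = 0.992, 0.033% of all probe sets passed), and limma gave 0 of them an unadjusted p under 0.05, against 5%. The couples' own differences had opposite signs for IAA11, at 0.15 and -0.073, and for IAA23, at 0.017 and -0.11. Their intervals in the difference between couples were -0.67 to 0.23 and -0.59 to 0.32.

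The comparisons across couples set lines of equal transgene status against each other. Between the null lines none of the 5 passed, where 0.231% of all probe sets did, limma gave 0 of 5 an unadjusted p under 0.05 against 17.5%, and the arrays of IAA3 alone were separated, against 21.1% of all probe sets. Between the overexpressing lines none passed either, against 0.829%. There 3 of 5, IAA3, IAA11 and PID, had an unadjusted p under 0.05, against 25.7% of all probe sets, and these 3 also had separated arrays, against 30.4%. IAA3 was the higher in OE 67.5, and IAA11 and PID were the higher in OE 67.1. These comparisons share their arrays with the comparisons within couples.

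**Figure D4:**
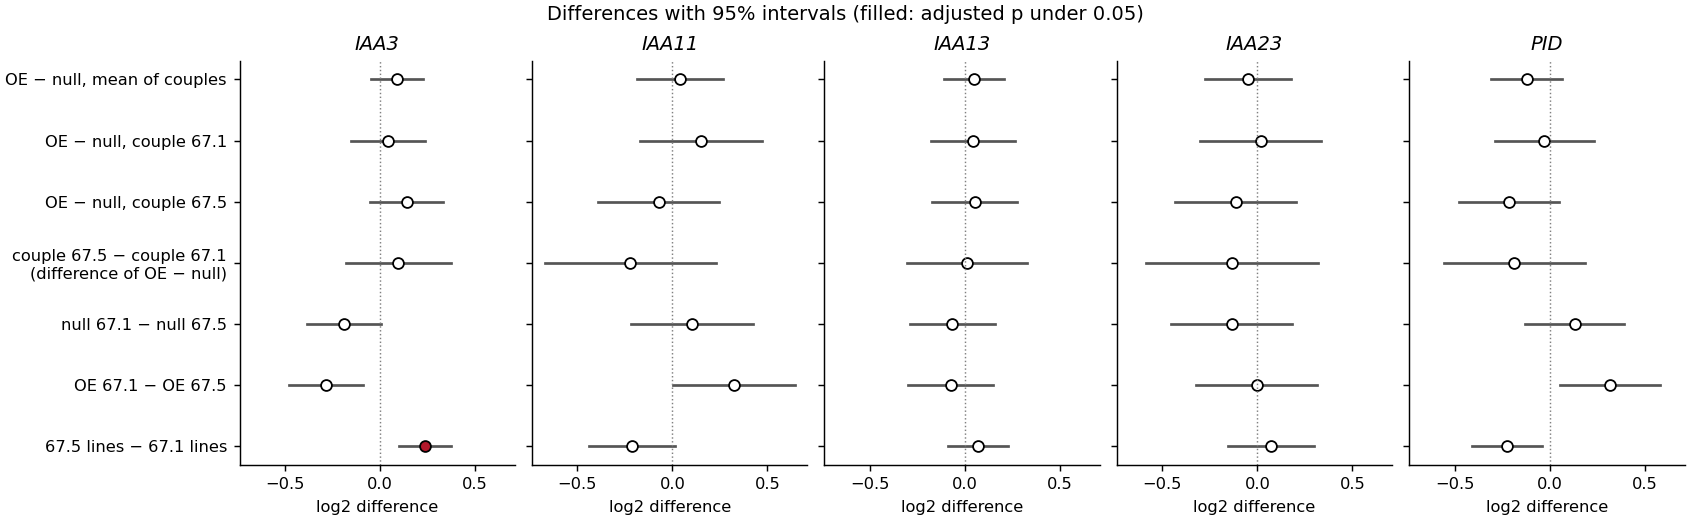
Log2 differences (horizontal axis) of the 5 genes in each comparison (rows), with 95% intervals from the linear model over 12 arrays. Filled points have an adjusted p under 0.05. The 1 filled point is IAA3 between the 67.5 and the 67.1 lines, at 0.24, and every interval of overexpression against null includes 0.

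The other Aux/IAA genes showed no change with overexpression that passed. Of the 24 other measured members of the family, 10 gave positive and 14 negative differences on the mean of both couples, with a median of -0.014, against 0.0079 over all probe sets, and a range of -0.17 to 0.19. None of the 24 passed in couple 67.1 or in couple 67.5, where 0.0165% and 0.342% of all probe sets did. On the mean of both couples limma gave 0 of the 24 an unadjusted p under 0.05, against 9% of all probe sets. Among the 28 Aux/IAA genes in all, IAA3 had the 6th, IAA23 the 16th, IAA13 the 17th and IAA11 the 19th largest difference in size.

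IAA30 (LOC4352721) had the smallest p of the other Aux/IAA genes. It lay at 7.72 to 7.75 in null 67.1 and 7.81 to 7.85 in OE 67.1, and at 7.82 to 7.97 in null 67.5 and 7.97 to 8.04 in OE 67.5. Its arrays were thus separated in both couples, as for 1.2% of all probe sets, by a difference of 0.10 ± 0.05 that did not pass (adjusted p = 0.615). In couple 67.5 the gap was very narrow, from 7.9683 to 7.9689. IAA24 (LOC4342573), the next by p, gave 0.19 ± 0.11 (adjusted p = 0.632) at a low level of 3.13 to 3.85.

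Between the 67.5 and the 67.1 lines, IAA6 (LOC4326541) and IAA3 were the 2 Aux/IAA genes of 28 that passed, where 14.9% of all probe sets did. IAA6 was higher in the 67.5 lines by 0.35 ± 0.09 (adjusted p = 0.0277), a call lost after the further quantile normalization (0.28, adjusted p = 0.0665) and without any 1 of 7 arrays. IAA9 (LOC4331061), named for its rank next to IAA6 in size after the values were seen, gave -0.30 ± 0.10 (adjusted p = 0.0536). Of the 24 Aux/IAA genes beside IAA3, IAA11, IAA13 and IAA23, which include IAA6 and IAA9, 12 were higher and 12 lower, with a median of 0.018 against 0.020 over all probe sets.

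**Figure D5:**
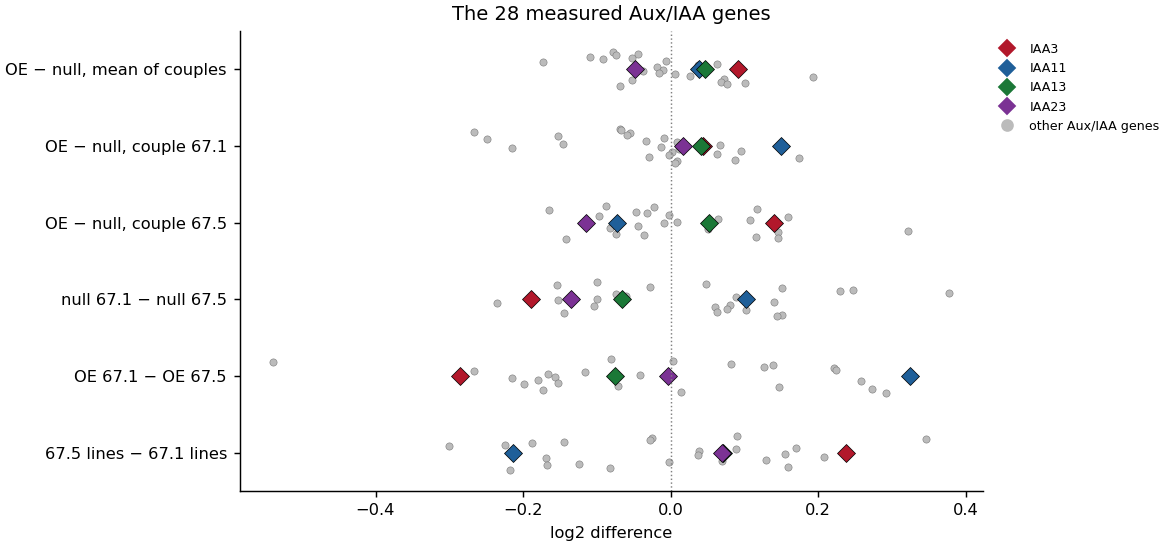
Log2 differences (horizontal axis) of the 28 measured Aux/IAA genes in 6 comparisons (rows). Diamonds are IAA3, IAA11, IAA13 and IAA23 and grey points are the other 24 genes, spread vertically to be seen. In the comparison of the 67.5 with the 67.1 lines IAA3 lies at 0.24 and IAA11 at -0.21, and on the mean of both couples all 4 lie within the range of the other genes.

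Genes on the lists of auxin response, transport and metabolism and of root regulators also gave no call on the mean of both couples. An unadjusted p under 0.05 in limma was reached by 1 of 19 ARF genes, 1 of 6 auxin carrier genes, 1 of 10 genes of auxin synthesis and conjugation and 2 of 17 root regulators, against 9% of all probe sets. Of 19 ARF genes 16 gave positive differences (median 0.068, against 0.0079 over all probe sets, none passed). By couple these were 9 of 19 in couple 67.1 (median -0.021) and 15 of 19 in couple 67.5 (median 0.13). Among probe sets brighter than the median probe set, the median was 0.032 on the mean of both couples. It was 0.015 in couple 67.1 and 0.046 in couple 67.5. The part of this shift in the ARF values was not tested. On the mean of both couples the examples were ARF8 (LOC4330045) at 0.19 ± 0.09 (adjusted p = 0.555) and ARF7 (LOC4329672) at 0.11 ± 0.06 (adjusted p = 0.601). Of 6 PIN genes 2 gave positive differences on the mean of both couples (median -0.045, none passed). PIN5B (LOC4347506) gave -0.23 ± 0.08 there (adjusted p = 0.402), from -0.032 ± 0.11 in couple 67.1 and -0.42 ± 0.11 in couple 67.5. The couple 67.5 difference did not pass either (adjusted p = 0.177). It lay at 4.0 to 4.26 in null 67.5 and 3.69 to 3.77 in OE 67.5, a separation seen for 14.9% of all probe sets. In PIN5B, OE 67.1 exceeded OE 67.5 by 0.53 ± 0.11 (adjusted p = 0.0468). That call was lost after the further quantile normalization (0.50, adjusted p = 0.0656), with all probe sets tested (adjusted p = 0.0779), with only the arrays compared (adjusted p = 0.0627) and without any 1 of 8 arrays. PIN2 (LOC4341736) lay at 2.42 to 2.69 on all arrays.

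Of 10 genes of auxin synthesis and conjugation 3 gave positive differences (median -0.026, none passed). GH3.1 (LOC4327043), which encodes an enzyme that conjugates auxin to amino acids, gave -0.33 ± 0.09 in couple 67.1 and -0.071 ± 0.093 in couple 67.5. GH3.7 (LOC4341111), of the same family, gave -0.11 ± 0.10 and 0.31 ± 0.10. SAUR39 (LOC9271092), a small auxin-induced gene, gave -0.34 ± 0.11 in couple 67.1 and 0.014 ± 0.11 in couple 67.5, at a level of 2.60 to 3.23. None of GH3.1, GH3.7 and SAUR39 passed within a couple (lowest adjusted p = 0.263). They did not pass the test of a difference between couples either (lowest adjusted p = 0.785). Of 17 crown root and root patterning regulators 8 gave positive differences (median -0.0049, none passed). SCR1 (LOC4349638) gave 0.26 ± 0.11 on the mean, from -0.023 ± 0.15 in couple 67.1 and 0.54 ± 0.15 in couple 67.5. Its level was low, at 3.04 to 4.11, below the median of every array. SHR1 (LOC4343753), whose Arabidopsis counterpart acts with SCARECROW in root radial patterning, gave -0.15 ± 0.06 on the mean, from -0.26 ± 0.09 in couple 67.1 and -0.040 ± 0.092 in couple 67.5. Neither SCR1 (adjusted p = 0.934) nor SHR1 (adjusted p = 0.992) passed the test of a difference between couples. Within a couple neither of them passed (lowest adjusted p = 0.212).

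The 5 genes did not share a single pattern over the arrays. Across the 12 arrays, which share 4 lines and 3 repetitions, Pearson's r was 0.71 between IAA11 and PID, 0.68 between IAA3 and IAA13, and -0.62 between IAA3 and PID. With each line's mean subtracted these values were 0.66, 0.78 and -0.033. The negative relation of IAA3 and PID was thus one between line means. IAA23 and PID had an r of 0.495 over the arrays and of 0.78 with line means subtracted.

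Other named genes followed single members closely. They were the 3 with the highest r over 12 arrays among 1614 named genes above the median level, and are given as a description. For IAA3 they were FIL2 (LOC4333584, r = 0.95), the proteasome subunit gene PBD1 (LOC4333803, 0.94) and the flowering regulator gene Ehd4 (LOC4331372, 0.93). For IAA3 the upper end of the middle 95% of all candidates was already 0.86. IAA11 was followed by the flowering regulator gene Ehd2 (LOC4348644, 0.92), DREB1B (LOC4347618, 0.91) and the mini zinc finger gene MIF3 (LOC4347053, 0.89). For IAA13 these were the jasmonate repressor gene JAZ4 (LOC4347000, 0.92), TOM20 (LOC4327752, 0.91), of mitochondrial protein import, and the zinc finger gene OsC3H25 (LOC4334639, 0.84).

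IAA23 was followed less closely, by LOL3 (LOC4333536, 0.84), the homeobox gene HOX6 (LOC4347647, 0.81) and OsC3H56 (LOC4344715, 0.74). PID was followed by the glutaredoxin gene GRXC14 (LOC4352425, 0.91), NH5 (LOC4349742, 0.90), an NPR1 homologue, and the YABBY gene YAB3 (LOC4349074, 0.82). The line means of NH5 were 6.99 in null 67.1, 7.06 in OE 67.1, 6.51 in null 67.5 and 6.31 in OE 67.5, and those of PID were 4.43, 4.40, 4.30 and 4.09. In both genes OE 67.5 was the lowest line and null 67.5 the next.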

How the data were processed

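Total RNA was labelled with biotin and hybridised to 1-colour Affymetrix arrays, 1 for each of 12 samples, per the labels' protocols. The deposited log2 values were made by the authors with RMA, per the submitters' processing notes; no source used here gives its version, the probe annotation's or the genome build, so no coordinates are printed. The table holds 36643 probe sets: the platform annotation lists 1 gene for 24161, several for 90 and none for 12392. Gene names came from the RefSeq gene table of assembly ASM3414082v1, which holds all 24160 genes with a single-gene probe set; 2745 had an informative name, and only these could enter a gene list.

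All 12 arrays entered 1 limma 3.58.1 model of the 4 line means (R 4.3.3, functions lmFit and eBayes; the residual degrees of freedom were 8), with two-sided tests and Benjamini-Hochberg adjustment over 24251 annotated probe sets at a threshold of 0.05. Adjusted p-values and intervals come from this fit unless the sentence names another setting, a left-out array or the test of the repetition number. With 3 arrays a line an exact permutation test could not pass, so none was used. The precision is limited by the number of arrays, and p-values measure the spread between arrays of a line.

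The 5 genes and the gene lists were chosen with earlier results of these data known. Gene lists were matched by symbol, and 5 matches were left out because the same symbol names another gene. The rule for other named genes took the 2 with the smallest p on the mean of both couples from each list, and the 3 with the highest Pearson r for each of the 5 genes. IAA6, IAA9 and IAA12 lie outside that rule and were chosen after their values were seen. In simulated data with 24251 probe sets, changes of 0.5 were recovered in 82% of cases for the mean of both couples, 41% for couple 67.1, 57% for couple 67.5 and 18% for the difference between couples. Alternatives were a replicate block, all probe sets, a filter on low values, further quantile normalization, median centring, a trended robust prior, only the arrays compared, and each array left out.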

Additional observations from a re-analysis of the deposited data

How the results depend on the processing

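In the planned comparisons the 5 genes had 30 differences and 548 values under alternatives, and none of these passed the threshold; 31 had the opposite sign to the main value, the largest of them 0.145 in size. The further quantile normalization turned IAA13 to -0.0051 in couple 67.5, -0.020 in the difference between couples, 0.033 between the null lines, 0.053 between the overexpressing lines and -0.043 between the 67.5 and 67.1 lines, and median centring turned IAA23 between the overexpressing lines to 0.00049. The further quantile normalization also ended the IAA3 call between the 67.5 and 67.1 lines (0.11), which left 0 of the 5 genes past the threshold.

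With each array left out in turn, IAA11 ranged from -0.034 to 0.11 and IAA23 from -0.12 to 0.023 on the mean of both couples, where IAA13 kept its sign from 0.011 to 0.083 and PID from -0.18 to -0.074. In couple 67.1 IAA3 ranged from -0.0050 to 0.073, IAA13 from -0.026 to 0.096, IAA23 from -0.093 to 0.16 and PID from -0.073 to 0.046. In couple 67.5 IAA11 ranged from -0.22 to 0.062 and IAA13 from -0.020 to 0.12, and in the difference between couples IAA13 ranged from -0.062 to 0.083. Between the null lines IAA11 ranged from -0.042 to 0.22 and IAA13 from -0.14 to 0.0053, and between the overexpressing lines IAA23 ranged from -0.11 to 0.15. Between the 67.5 and 67.1 lines IAA3 ranged from 0.21 to 0.26, IAA23 from -0.0048 to 0.14 and PID from -0.27 to -0.17, with 0 to 2 of the 5 genes past the threshold. The count of probe sets past it ranged from 14 to 46 on the mean of both couples, 2 to 6 in couple 67.1, 20 to 88 in couple 67.5, 3 to 7 for the difference between couples, 10 to 1113 between the null lines, 20 to 930 between the overexpressing lines and 1075 to 5875 between the 67.5 and 67.1 lines.

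Same-numbered arrays of different lines deviated together more often than others (r over 0.1 in 12 of 18 pairs, median 0.14, against 10 of 36 differently numbered pairs, median -0.063). Not every same-numbered pair did, and the labels state no shared day, so the numbers were not taken to pair the samples. The replicate block changed no call of the 5 genes (IAA3 between the 67.5 and 67.1 lines 0.24, adjusted p = 0.0159), and moved the count of probe sets from 56 to 507 between the null lines, from 201 to 2048 between the overexpressing lines and from 3620 to 5613 between the 67.5 and 67.1 lines. With all probe sets tested, unnamed ones included, the counts were 25 on the mean of both couples, 33 in couple 67.5 and 61 between the overexpressing lines. The filter on low values, the further quantile normalization and the trended robust prior each gave 7 in couple 67.1. The further quantile normalization also gave 5 for the difference between couples, 61 between the overexpressing lines and 2154 between the 67.5 and 67.1 lines. With only the arrays compared 29 passed in couple 67.5, 20 between the null lines and 29 between the overexpressing lines. Among probe sets kept by the filter the median difference between the overexpressing lines was -0.11, so changes of bright genes are read against that shift. The cause of these differences was not tested. The filter left out IAA23 and PID, whose mean lay under the median, so it gave no value for them. None of the 12 named pathway genes changed direction or passed on the mean of both couples under any alternative run, which were added after the values were seen.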
